A study of Mus musculus with 6 samples.

Results

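Collagens and other extracellular matrix genes were followed in ovaries of C57BL/6J mice. The members are 39 gene symbols listed by name, though with earlier results of these data known. They comprise 7 fibrillar collagens, 13 basement membrane genes, 7 other collagens and 12 matrix glycoproteins and proteoglycans. Of the 39 genes, 35 had a probe that passed the background filter (detected in every sample of 1 genotype or of both), among 19412 gene names in all. Ovary RNA came from female mice aged 20 weeks, 3 wild type and 3 SeBP1 knockout. SeBP1 is the labels' name for selenium-binding protein 1, the product of Selenbp1, a methanethiol oxidase. All 6 samples share the strain, sex, age and tissue, and the Cy3-labelled RNA of each was read on its own Agilent array of the whole mouse genome. Which part of the gene was removed, the breeding, the stage of the oestrous cycle and whether each array is a separate mouse are not in the labels, so the p-values reflect only how these samples differ, which may be technical. Wild types 1 and 2 lay on slide 1, and wild type 3 and the 3 knockouts on slide 2, so a difference measured within a slide rests on wild type 3 alone. The numbers are the replicate numbers of the sample descriptions, while the sample titles carry other numbers, and neither is stated to pair a wild type with a knockout.

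Collagens are proteins of the extracellular matrix whose chains wind into a triple helix. Fibrillar collagens build the fibres of the ovarian capsule, the stroma and the theca around each follicle, while collagen IV, laminins, nidogen and perlecan form the basement membranes that enclose follicles and vessels. Small proteoglycans such as decorin sit on the fibres, and elastin with fibrillin gives stretch. A growing follicle and a regressing corpus luteum both rebuild this matrix.

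Values are log2 of the processed spot intensity minus log2 of the 75th percentile of that intensity on the same array, so that 0 is the 75th percentile and a step of 1 is a doubling. That percentile lay between 1309 and 1759 intensity units, between 61.6% and 69.3% of spots were well above background and no spot was saturated. Selenbp1 itself still read 1287 to 1519 intensity units in the knockouts, well above background, against 7894 to 11236 in the wild types. On the log2 scale it fell by 2.75, a 6.72-fold drop, with an SE (standard error) of 0.13. Its groups did not overlap, and it was called at an adjusted p of 0.0104 by limma. That call was lost without wild type 1, wild type 2, knockout 1 or knockout 3, and with slide as a block, where the adjusted p by limma was 0.0792. The ovary label was met by its defining markers, as all 10 oocyte and all 8 granulosa markers listed were well above background. Corpus luteum markers stood apart in knockout 2, where the summed signal of 6 markers was 4.9 times the array's 75th percentile, against 40.5 to 63.2 in the wild types and 63.0 and 98.6 in the other knockouts. Sfrp4 weighs most in that sum, and Akr1c18 was lowest in wild type 3 instead. Markers of fat stood apart in wild type 1 (3 of 6 markers measured, summed 7.78 against 1.03 to 1.84 on the other arrays) and markers of the oviduct in wild type 2 (4 of 5 measured, 29.6 against 0.351 to 1.02). The oviduct sum rests on Ovgp1, at 44957 intensity units in wild type 2 against 433 to 721 for the other markers, and Rsph1 was highest in wild type 3. Fabp4 and Retn carry the fat sum, as Plin1 was 0.23 in wild type 1 and 0.10 in knockout 1. In whole tissue, fewer cells of a type and less RNA per cell cannot be told apart.

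No matrix gene passed the threshold between genotypes. With limma on all 24415 probes kept, 0 of the 35 members were called at an adjusted p under 0.05, where 1 probe of the whole array was, or 0.0041%. At an unadjusted p under 0.05, 1 member was lower in the knockout (Dcn, decorin, 2.86% of the 35) and 0 were higher, against 1.74% and 2.2% of all probes. The knockout and wild-type arrays did not overlap for 1 member, Col4a4, which was lower, and for 0 members that were higher, against 4.75% and 4.21% of all probes. Each of these shares rests on 0 or 1 of the 35 members, too few to set them apart from the background in either direction. The mean was lower in the knockout for 27 members and higher for 8, that is 77.1% lower against 54.3% of all probes. The median member difference was -0.09 on the log2 scale, beside -0.02 over all probes, and single members ran from -0.90 for Col14a1 to 0.45 for Col11a1. All adjusted p values of members were 1.00.

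**Figure D1:**
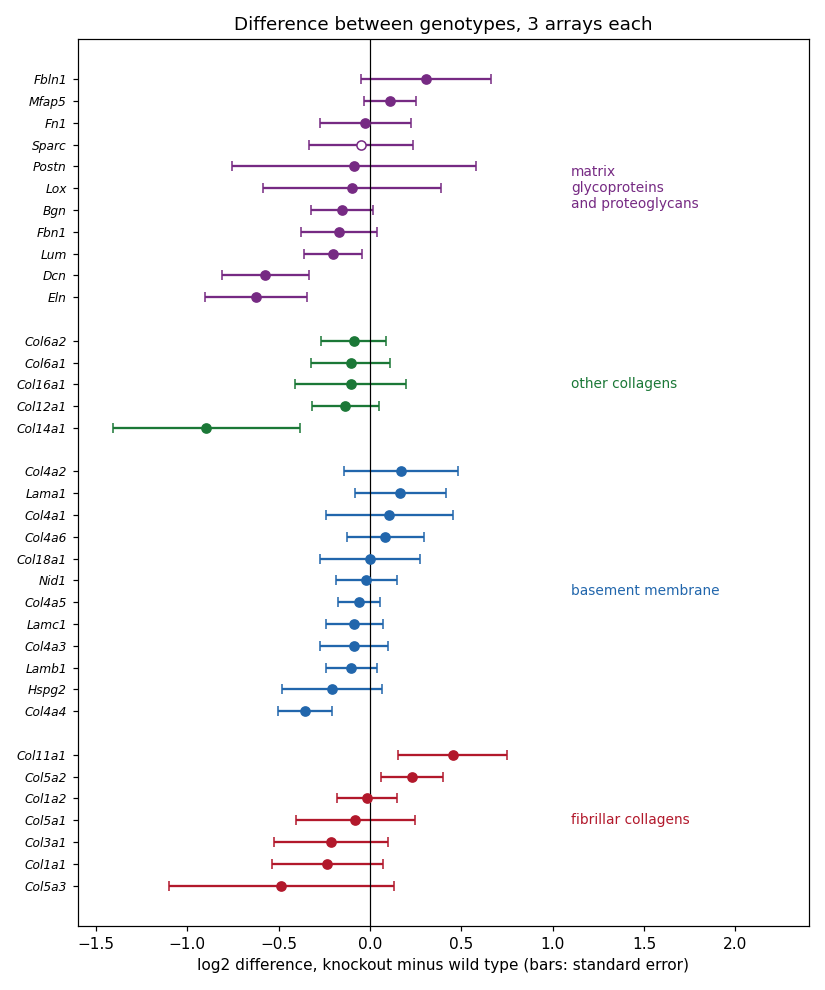
Log2 difference of each of the 35 measured members (horizontal axis, knockout minus wild type), grouped by class, with the standard error from limma as bars; the open circle marks Sparc, measured on 4 of the 6 arrays. Most points sit a little left of 0, from -0.90 for Col14a1 to 0.45 for Col11a1, and none passed the threshold.

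The sign of the median turned on knockout 2. Without it the median member difference was 0.09, with 14 members lower and 21 higher, and 17 of the 35 changed sign. Leaving out knockout 1 instead gave -0.20, and knockout 3 gave -0.14. Within slide 2, where the 3 knockouts meet wild type 3, the median was -0.07, beside 0.03 over all probes there. In 8 members the sign stayed the same under all 20 alternatives tried: Bgn, Col14a1, Col4a4, Dcn and Eln were lower, and Col11a1, Col5a2 and Fbln1 were higher. At their values nearest 0, several were small, with 0.01 for Fbln1, -0.02 for Bgn, -0.07 for Col4a4, 0.07 for Col11a1 and 0.08 for Col5a2.

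**Figure D2:**
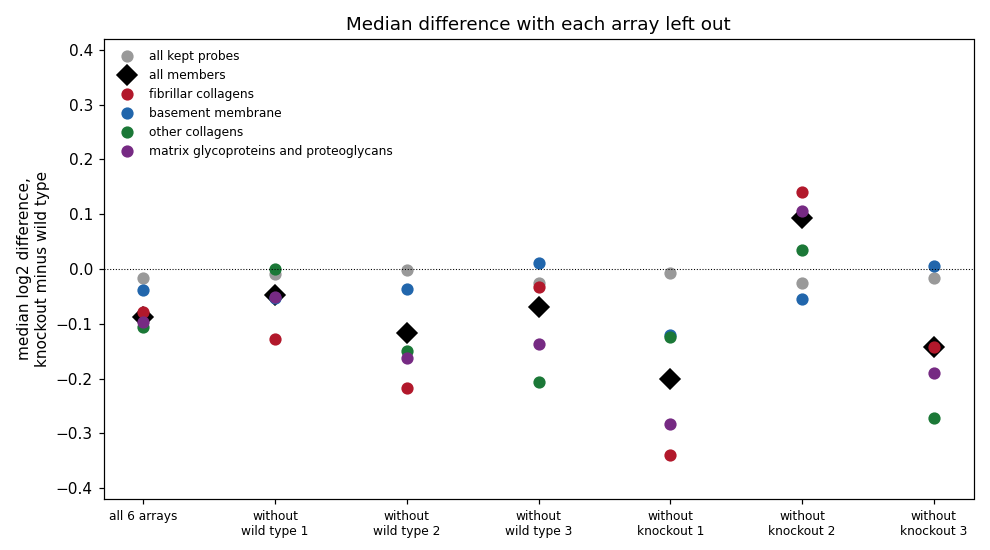
Median log2 difference, knockout minus wild type (vertical axis), for all probes, for all members (diamonds) and for each class, with all 6 arrays and with each array left out in turn. The median of all members is 0.09 without knockout 2 and lies below 0, down to -0.20, in the other settings; Sparc has no value without wild type 3.

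Matrix genes varied more between ovaries of 1 genotype than probes in general did. The median SD within genotype was 0.35 over the 34 members with an SD, beside 0.19 over all kept probes. All of the 34 except Lamb1, Col4a4, Col4a5 and Mfap5 lay above the median of all kept probes. This was not particular to them, as the median SD ran from 0.31 to 1.99 over the 12 lists of cell type markers. Among related genes it was 0.16 for collagen modification, folding and secretion, and 0.23 to 0.35 in the other partner lists described below. Between the lowest and the highest of the 6 arrays, 15 members spanned more than 2-fold and 3 more than 4-fold, namely Postn (6.25-fold), Col5a3 (6.08-fold) and Col14a1 (4.95-fold). Knockout 2 was the lowest array for 22 members, or 62.9%, where it was the lowest for 21.4% of all probes. Against the mean of the other knockouts, 28 members were lower in knockout 2 with a median of -0.39, beside 45.9% of all probes and a median of 0.03. By contrast Lama1, Col4a6 and Col11a1 had their highest value there.

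**Figure D3:**
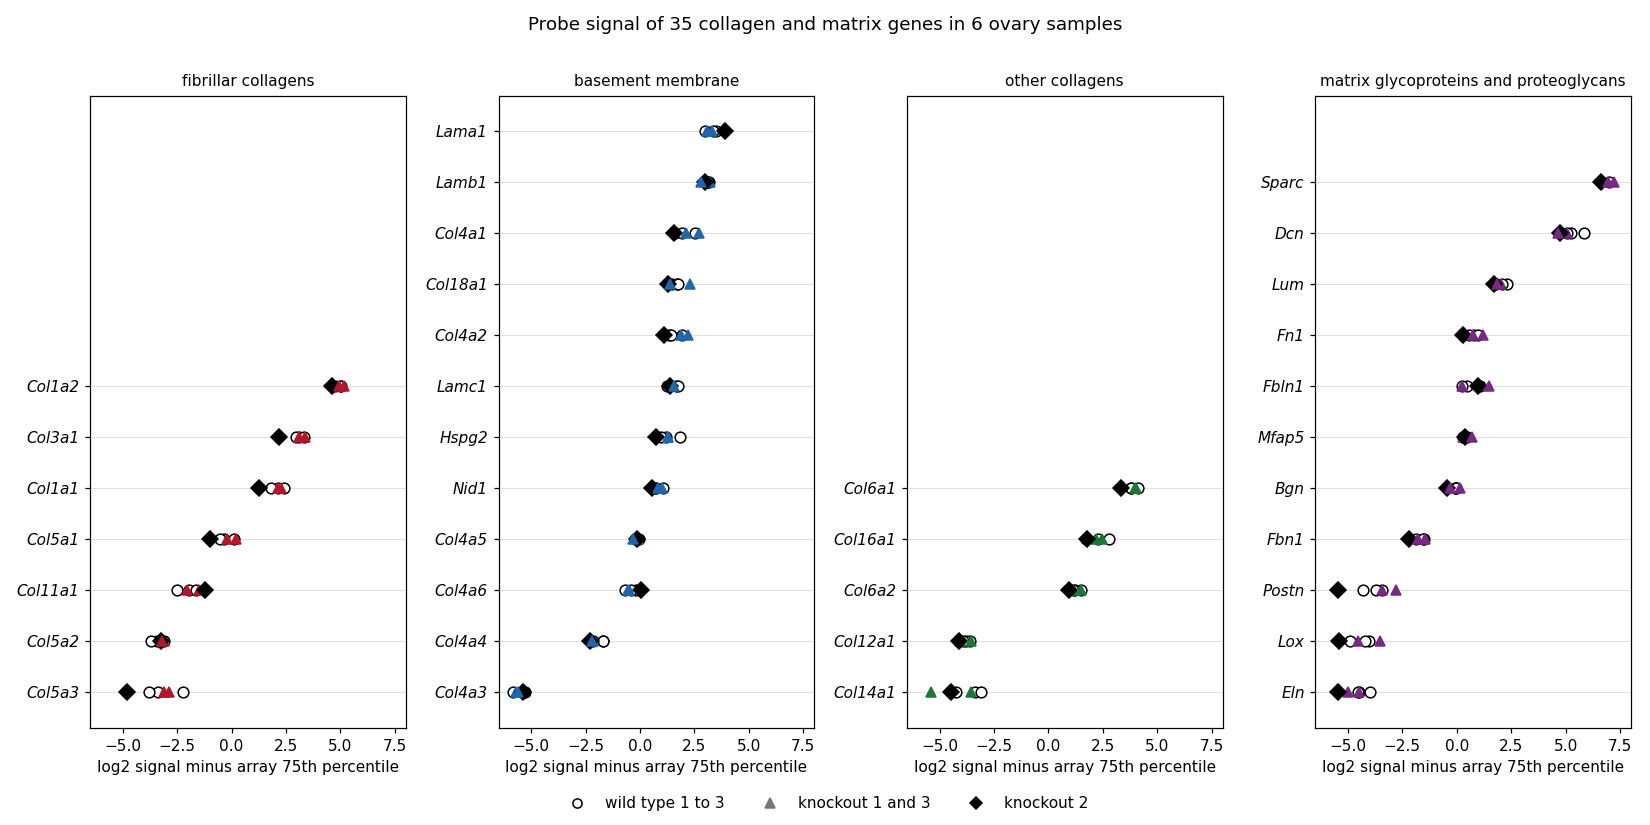
Log2 signal relative to the array's 75th percentile (horizontal axis) of each member on each array, by class, with wild types as open circles, knockouts 1 and 3 as triangles and knockout 2 as a black diamond. Rows run by probe signal, which does not measure transcript amount between genes; the diamond is leftmost for 22 of the 35 genes.

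Fibrillar collagens come first by role, since types I and III make up most of the tissue's fibres. By signal of their own probes the order from bright to dim was Col1a2, Col3a1, Col1a1, Col5a1, Col11a1, Col5a2 and Col5a3, an order of probes and not of transcript amounts. Col1a2, the alpha 2 chain of collagen I, measured 5.03, 4.98 and 4.75 in wild types 1 to 3 and 5.14, 4.62 and 4.94 in knockouts 1 to 3. The knockouts spanned the wild types on both sides, and the difference was -0.02 with a standard error of 0.17. Col1a1, the partner chain, measured 2.12, 1.83 and 2.41 in the wild types and 2.14, 1.23 and 2.28 in the knockouts. Knockout 2 was low and the others lay among the wild types, which gave a difference of -0.23 (SE 0.31).

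Col3a1, the single chain of collagen III, measured 3.08, 2.95 and 3.30 in the wild types and 3.39, 2.19 and 3.11 in the knockouts. Knockout 2 was lowest and knockout 1 highest of the 6, and the difference of -0.21 (SE 0.31) became 0.14 without knockout 2. Col5a1, a chain of the collagen V that starts fibrils, measured -0.35, -0.52 and 0.12 in the wild types and 0.19, -0.98 and -0.20 in the knockouts. Again knockout 2 was lowest while knockout 1 was highest of all 6. Col5a3 spread most in the class, with -3.36, -3.79 and -2.22 in the wild types and -2.88, -4.82 and -3.12 in the knockouts. Its difference of -0.49 (SE 0.62) was smaller than the SD of either group, at 0.81 for wild type and 1.06 for knockout. It was 0.12 without knockout 2, -0.03 without wild type 3 and -1.39 within slide 2.

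Col11a1 and Col5a2 went the other way. Col11a1, a chain of collagen XI found with thin fibrils, measured -1.96, -1.65 and -2.53 in the wild types and -1.51, -1.21 and -2.07 in the knockouts. It had the smallest p of the class, with a difference of 0.45 (SE 0.30), although knockout 3 lay below wild types 1 and 2. The difference was 0.21 without wild type 3, 0.26 without knockout 2 and 0.93 within slide 2. Its probe matches bases 113923185 to 113923244 of chromosome 3 (mm9, plus strand). Col5a2 measured -3.12, -3.42 and -3.72 in the wild types and -3.09, -3.26 and -3.22 in the knockouts, a difference of 0.23 (SE 0.17). Both groups overlapped, and the class median was -0.08 with all arrays, 0.14 without knockout 2 and -0.34 without knockout 1. Within slide 2, where the class median rests on wild type 3 alone, it was -0.41, far from the -0.08 of all arrays.

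Promoters are shown for 4 fibrillar collagens, of which 3 had their lowest value in knockout 2 and Col11a1 its highest. Col1a1 and Col5a1 were also lowest in knockout 2 and are not printed. Each of RefSeq's promoter windows on GRCm38.p6 holds 250 bases before 1 transcript start, and a gene can have none, 1 or more. In Col5a3 and Col11a1 the gene record begins further upstream, so that 50 and 61 bases of the window lie inside it. Each run therefore gives the part of the window outside the gene record, 5′ to 3′ on the gene's own strand. Capitals mark CCAAT (the box bound by NF-Y), GGGCGG (bound by Sp1 family factors) and TATAAA (the TATA box), each searched on both strands, so that ATTGG and CCGCCC are the same motifs read from the other strand. None of these motifs overlaps another.
Col1a2, chr6:4505368-4505617, plus strand: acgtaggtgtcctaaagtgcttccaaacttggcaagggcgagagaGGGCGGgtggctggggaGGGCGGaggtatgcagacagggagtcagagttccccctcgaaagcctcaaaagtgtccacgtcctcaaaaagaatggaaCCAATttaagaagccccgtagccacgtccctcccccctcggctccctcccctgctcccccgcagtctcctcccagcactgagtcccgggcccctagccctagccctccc
Col3a1, chr1:45311288-45311537, plus strand: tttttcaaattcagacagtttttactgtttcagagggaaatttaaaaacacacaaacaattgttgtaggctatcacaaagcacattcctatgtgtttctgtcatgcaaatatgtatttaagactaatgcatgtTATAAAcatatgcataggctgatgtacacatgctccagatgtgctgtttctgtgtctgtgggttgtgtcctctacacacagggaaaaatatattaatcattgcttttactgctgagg
Col5a3, chr9:20815118-20815317, minus strand: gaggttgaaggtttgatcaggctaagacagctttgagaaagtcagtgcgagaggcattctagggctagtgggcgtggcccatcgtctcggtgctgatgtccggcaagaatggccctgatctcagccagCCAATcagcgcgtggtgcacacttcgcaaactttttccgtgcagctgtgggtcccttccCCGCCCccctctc
Col11a1, chr3:114030290-114030478, plus strand: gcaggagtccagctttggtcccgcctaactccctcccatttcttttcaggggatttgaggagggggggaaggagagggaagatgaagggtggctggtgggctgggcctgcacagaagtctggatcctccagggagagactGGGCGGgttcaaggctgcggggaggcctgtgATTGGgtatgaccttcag

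In these runs Col1a2 held 1 CCAAT and 2 GGGCGG, and Col5a3 and Col11a1 each held 1 of both. The CCAAT began 109 bases before the gene record in Col1a2, 72 bases in Col5a3 and 18 bases in Col11a1, there on the other strand. Col3a1 held neither and had a TATAAA that began 117 bases before the record, in a run with 35.2% G and C, against 58.0% to 62.0% in the other 3. Over the full windows of 250 bases, CCAAT was held by 33.8%, GGGCGG by 32.7% and TATAAA by 12.4% of the 32851 in the table. Of the 26 members with a full window, 10 held CCAAT, 17 GGGCGG and 2 TATAAA. A member with several windows was counted if any of them held the motif. These are therefore counts of genes, while the shares above are of windows. The run of Col5a1, not printed above, held 2 GGGCGG, 0 CCAAT and 0 TATAAA. These matches describe letters and are not shown to be sites in use, and their part in the values of knockout 2 was not tested.

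Collagen IV is the network collagen of basement membranes, and its 6 chains are encoded in 3 pairs of neighbouring genes read in opposite directions. By the transcript starts of the RefSeq promoter table, those of Col4a1 and Col4a2 lie 21 bases apart on chromosome 8, and the starts of Col4a5 and Col4a6 lie 1343 bases apart on chromosome X. Col4a1 measured 1.62, 1.92 and 2.54 in the wild types and 2.71, 1.57 and 2.12 in the knockouts. Col4a2 measured 1.32, 1.41 and 1.95 in the wild types and 2.21, 1.11 and 1.87 in the knockouts. Both genes put the 6 arrays in the same order, from knockout 2 at the bottom through wild type 1, wild type 2, knockout 3 and wild type 3 to knockout 1 at the top. The differences were 0.11 (SE 0.35) and 0.17 (SE 0.31), and within slide 2 both turned negative, at -0.40 and -0.22.

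The other pairs did not share an order of arrays. Col4a4, a chain used in specialised basement membranes, measured -1.70, -1.72 and -2.15 in the wild types and -2.15, -2.29 and -2.19 in the knockouts. Its groups do not overlap, yet wild type 3, on the slide of the knockouts, lies just above knockout 1. The difference was -0.36 (SE 0.15), and within slide 2 it was -0.07. Its probe matches bases 82447879 to 82447938 of chromosome 1 (mm9, minus strand). A second Col4a4 probe gave -0.29 (SE 0.28) with overlap. Col4a3, the neighbouring gene, was near the detection limit at -5.29, -5.31 and -5.83 in the wild types and -5.72, -5.38 and -5.60 in the knockouts, and 1 wild-type array was not well above background.

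Col4a5 was the steadiest member, at -0.05, -0.23 and -0.13 in the wild types and -0.10, -0.16 and -0.33 in the knockouts. That is a 1.21-fold span over 6 arrays. Col4a6, its neighbour, measured -0.19, -0.43 and -0.67 in the wild types and -0.57, 0.05 and -0.52 in the knockouts. Knockout 2 was its highest array, opposite to Col4a1 and Col4a2, and the differences were -0.06 (SE 0.11) for Col4a5 and 0.08 (SE 0.21) for Col4a6.

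**Figure D4:**
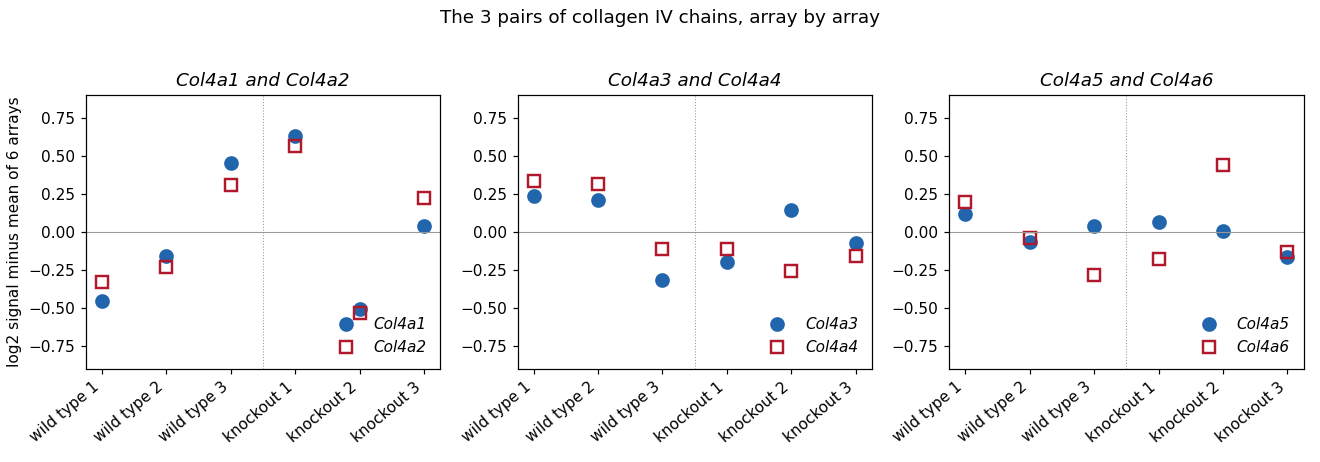
Log2 signal of the 6 collagen IV chains on each array minus the gene's mean over the 6 arrays (vertical axis), by neighbouring pair; a dotted line separates the genotypes. Col4a1 and Col4a2 order the arrays alike with knockout 2 lowest, while Col4a6 is highest in knockout 2 and the knockouts of Col4a4 lie below the wild types.

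Among the other basement membrane genes, the laminin chains Lama1 and Lamb1 had the brightest probes. Lama1, the alpha 1 chain of the classical laminin, measured 3.50, 3.35 and 2.97 in the wild types and 3.30, 3.92 and 3.10 in the knockouts, with knockout 2 highest. Lamb1, its beta 1 partner, measured 3.16, 3.13 and 3.02 in the wild types and 3.24, 2.98 and 2.79 in the knockouts. The groups overlap for both, with differences of 0.17 (SE 0.25) and -0.10 (SE 0.14). Hspg2, which encodes perlecan, a heparan sulfate proteoglycan, measured 1.17, 0.95 and 1.85 in the wild types and 1.30, 0.75 and 1.30 in the knockouts. Wild type 3 is high, so the difference of -0.21 (SE 0.27) became -0.73 within slide 2 and 0.06 without wild type 3. Lamc1, the laminin gamma 1 chain, Nid1, the nidogen that ties laminin to collagen IV, and Col18a1, the source of endostatin, differed by -0.08 (SE 0.16), -0.02 (SE 0.17) and -0.0010 (SE 0.27). Col15a1, the close relative of Col18a1, had 3 probes and none was kept, although 1 was well above background on 4 of the 6 arrays. The class median over 12 genes was -0.04, near the value of all probes.

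Collagen VI forms beaded filaments around cells and has the brightest probe of the remaining collagens. Col6a1 measured 4.11, 3.79 and 3.80 in the wild types and 4.05, 3.35 and 3.99 in the knockouts, and Col6a2 differed by a similar -0.09 (SE 0.18). Only knockout 2 lay outside the wild-type range of Col6a1, and the difference of that gene was -0.11 (SE 0.21). Col6a3 has no probe under its symbol. A probe that the files describe as collagen VI alpha 3 measured 1.43, 1.11 and 0.76 in the wild types and 1.47, 0.58 and 1.12 in the knockouts, a difference of -0.05 (SE 0.27), and is not counted among the members.

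Col14a1 and Col12a1 belong to the collagens that bind to fibrils without forming them. Col14a1 had the largest difference of all members, with -3.39, -4.22 and -3.08 in the wild types and -3.54, -4.46 and -5.39 in the knockouts. Here knockout 3 was lowest, at 39 intensity units, and knockout 1 lay among the wild types. The difference was -0.90 (SE 0.51), a 1.86-fold change, with an SD of 0.59 in wild type and 0.93 in the knockout. It was -0.43 without knockout 3, -1.36 without knockout 1 and -1.38 within slide 2. It was read at bases 55352264 to 55352323 of chromosome 15 (mm9, plus strand), and a second Col14a1 probe was not kept. Col12a1 measured -3.58, -3.79 and -3.90 in the wild types and -4.05, -4.08 and -3.54 in the knockouts, a difference of -0.13 (SE 0.18).

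Col16a1, another fibril-associated collagen, measured 2.77, 2.28 and 1.71 in the wild types and 2.18, 1.78 and 2.48 in the knockouts on its brightest probe. Wild type 1 is high and wild type 3 low, and the difference was -0.11 (SE 0.31). Its 3 probes disagreed: the dimmest gave -0.60 (SE 0.28) with no overlap and the remaining one gave 0.04. Of the 9 members with more than 1 kept probe, 6 had the same sign on all of them, and Col16a1, Col18a1 and Nid1 did not. Col8a1, a short-chain collagen of vessels, was well above background on 4 of the 6 arrays and was not kept. The class median over 5 genes was -0.11 and became 0.03 without knockout 2.

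Proteoglycans gave the member nearest to the threshold. Dcn, decorin, which binds collagen fibrils and growth factors of the TGF-beta family, measured 5.85, 5.27 and 5.05 in the wild types and 5.08, 4.74 and 4.63 in the knockouts. Wild type 1 stands above the rest, and knockout 1 lies just above wild type 3, so the groups overlap. The difference was -0.57 (SE 0.24; limma unadjusted p = 0.0497, adjusted p = 1.00), a 1.49-fold lower mean, and within slide 2 it was -0.23. Dcn was read at bases 96980233 to 96980292 of chromosome 10 (mm9, plus strand). Lum, lumican, a related proteoglycan that neighbours Dcn on chromosome 10, ran from 1.81 to 2.30 in the wild types and from 1.72 to 2.02 in the knockouts. Its order of arrays was like that of Dcn in having wild type 1 highest. Bgn, biglycan, differed by -0.15 (SE 0.17) and was highest in knockout 1.

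Fat markers moved with the array where Dcn was highest: the 3 measured of 6 listed summed to 7.78 in wild type 1, within a wild-type range of 1.03 to 7.78 and against 1.06 to 1.84 in the knockouts. That sum rests on Fabp4 and Retn, as Plin1 was 0.23 in wild type 1 and 0.10 in knockout 1. Of the defining fat markers, Adipoq was well above background on 4 of the 6 arrays and Lep on 0. Markers of surface epithelium and mesothelium (8 of 8 measured) were also highest in wild type 1, at 62.3 within a wild-type range of 44.9 to 62.3 and against 34.7 to 53.2 in the knockouts, as were the stromal fibroblast sum, at 21.9, and the smooth muscle sum, at 61.7. In the mesothelial list 7 of the 8 had a lower mean in the knockout, beside 54.3% of all probes. Among them Lrrn4 differed by -1.02 (SE 0.32; limma unadjusted p = 0.0179, adjusted p = 1.00). The part of these markers in the Dcn value was not tested. Without wild type 1 the Dcn difference was -0.34, and the sign held with each array left out. Dpt, dermatopontin, a small matrix protein of connective tissue, was not kept, with -3.28 in wild type 1 and -6.20, -5.13, -5.93, -6.43 and -5.56 on the other arrays in their order. Only wild type 1 is clearly high there.

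Eln encodes elastin, and its probe measured -3.99, -4.51 and -4.53 in the wild types and -4.98, -5.45 and -4.48 in the knockouts. Knockout 3 lies among the wild types while the others lie below them. The difference was -0.62 (SE 0.28), the second largest in size among members, on a dim probe. Fbn1, the fibrillin of the same fibres, differed by -0.17 (SE 0.21). Mfap5, a microfibril protein, and Fbln1, fibulin-1, differed by 0.11 (SE 0.14) and 0.31 (SE 0.36).

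Lox, the enzyme that cross-links collagen and elastin, measured -4.02, -4.20 and -4.92 in the wild types and -4.52, -5.40 and -3.53 in the knockouts. Postn, periostin, a matrix protein of remodelling tissue, measured -3.43, -4.29 and -3.70 in the wild types and -3.43, -5.44 and -2.80 in the knockouts. For both genes the knockouts hold the lowest value, in knockout 2, and the highest, in knockout 3. The differences of -0.10 (SE 0.49) for Lox and -0.09 (SE 0.67) for Postn became 0.36 and 0.69 without knockout 2. Fn1, fibronectin, an adhesive glycoprotein, differed by -0.02 (SE 0.25) and was likewise lowest in knockout 2.

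Sparc, a collagen-binding glycoprotein, had the brightest probe of all members, but the scanner software marked its spot as an outlier in wild types 1 and 2. On the remaining arrays it measured 6.98 in wild type 3 and 7.23, 6.62 and 6.95 in the knockouts. The fit dropped wild types 1 and 2, so the difference of -0.05 (SE 0.28) rests on wild type 3. With the marked spots kept, those samples measured 6.59 and 6.69, and the difference was 0.18 (SE 0.19). A second, dimmer Sparc probe measured on all 6 arrays gave -0.29 (SE 0.36), opposite in sign to the value with the marked spots kept. The class median over 11 genes was -0.10, and without knockout 2 it was 0.11.

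Markers of several cell types moved with the low matrix values of knockout 2. All 6 luteal markers listed were measured, with a summed signal of 40.5 to 63.2 in the wild types and 4.9 to 98.6 in the knockouts, the lowest in knockout 2. Sfrp4 weighs most in that sum, at 1798 intensity units in knockout 2 against 39545 to 101526 on the other arrays. All but Akr1c18 had their own lowest value in knockout 2. Akr1c18 was lowest in wild type 3, at -2.23, beside -1.65 in knockout 2, and highest in knockout 3. Smooth muscle and pericyte markers (9 of 9 measured) summed to 49.4 to 61.7 in the wild types and 35.1 to 56.8 in the knockouts, again lowest in knockout 2. Red cell markers (3 of 5 measured) were highest there, at 36.8 against 4.55 to 9.59 on the other 5 arrays. That sum rests on Hba-a1, at 53835 intensity units in knockout 2, against 1065 for Alas2 and 57 for Slc4a1. Slc4a1 was dim and spanned 1.28-fold over the arrays. Stromal fibroblast markers, 9 of 9 measured, summed to 17.5 to 21.9 in the wild types and 14.8 to 18.1 in the knockouts, lowest in knockout 2. Of these 9, only Cd34, the brightest, and Pi16 had their own lowest value there, and Nr2f2 had its highest. Of the theca and interstitial markers, 6 of 6 were measured and 5 had a signal on all arrays to sum, at 92.9 to 129 in the wild types and 46.2 to 125 in the knockouts. Macrophage markers, 6 of 6 measured, summed to 7.12 to 8.15 in the wild types and 5.70 to 9.86 in the knockouts. Both of these sums were lowest in knockout 2 as well. Of the macrophage markers, Csf1r was the brightest, and all but Cd68 had their own lowest value there. Cd68 measured -3.12, -3.39 and -2.97 in the wild types and -2.13, -2.87 and -2.20 in the knockouts. All its knockouts lay above all its wild types, as for 4.21% of all probes. Of the 5 theca markers summed, Cyp11a1 and Star were lowest there, and Cyp17a1, Nr5a1 and Ptch1 in wild type 3. The median of the theca list, each gene taken minus its own mean, was -0.29 in wild type 3 and -0.20 in knockout 2. The part of these cell types in the matrix values was not tested.

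On each array, the median over members of the value minus the gene's own mean was 0.15, -0.05 and 0.04 in the wild types and 0.18, -0.34 and 0.04 in the knockouts. Fibrillar collagens showed the same low point with -0.69 in knockout 2, and the highest values were 0.30 in wild type 3 and 0.31 in knockout 1. Basement membrane genes moved less, between -0.20 and 0.11. Luteal markers had their own extremes on the same pair of knockouts, at 1.71 in knockout 1 and -2.64 in knockout 2.

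**Figure D5:**
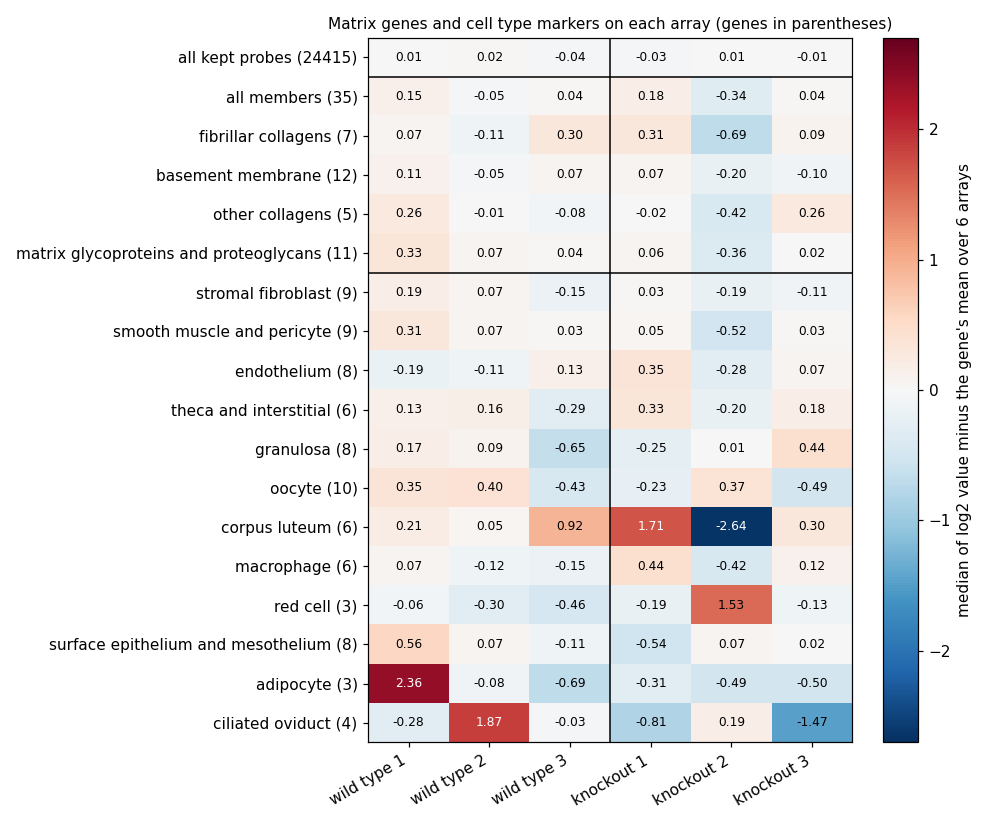
Median over the genes of each list of the log2 value minus the gene's mean over 6 arrays (colour and printed value), for all probes, the matrix classes and 12 lists of cell type markers (rows, genes measured in parentheses) on each array (columns). Knockout 2 holds the lowest median of each matrix class and of the luteal, muscle, stromal fibroblast, endothelial and macrophage markers. By summed signal the endothelial markers were lowest in wild type 2 instead, at 7 against 7.52 in knockout 2.

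Collagen chains are hydroxylated by P4ha and Plod enzymes, folded with Serpinh1 and trimmed outside the cell by Bmp1 and Adamts2 before Lox enzymes cross-link them. Of 17 genes for modification, folding and secretion, all 17 were measured, 0 were called and 0 passed an unadjusted p of 0.05 in either direction. Their median difference was -0.03 and their median on knockout 2 was -0.09, beside -0.34 for the members and -0.29 for the genes of processing and cross-linking; these were not tested against each other. P4ha3, a prolyl hydroxylase subunit, measured -2.80, -2.98 and -3.36 in the wild types and -3.46, -3.21 and -3.32 in the knockouts (difference -0.29, SE 0.17). P3h1, which hydroxylates single prolines, measured -0.49, -0.36 and 0.01 in the wild types and 0.22, -0.14 and -0.04 in the knockouts (difference 0.29, SE 0.17). Both overlap between the groups.

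Processing and cross-linking genes gave 9 measured of 13 listed, 0 called and a median of -0.03. Pcolce, which enhances the trimming of procollagen, measured 5.63, 5.58 and 6.08 in the wild types and 5.88, 5.07 and 5.54 in the knockouts, with knockout 2 lowest. Adamts14, a procollagen peptidase, differed by 0.18 (SE 0.19) with overlap, from -0.17 to 0.35 in the wild types and 0.04 to 0.52 in the knockouts.

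Matrix receptors included the gene with the smallest p of the partner lists. Of 25 listed, 24 were measured and 0 were called. At an unadjusted p under 0.05, 1 of the 24 was higher and 1 lower, beside 2.2% and 1.74% of all probes. Itga2, the integrin alpha 2 chain that binds collagen, measured -4.11, -4.18 and -4.13 in the wild types and -3.93, -3.66 and -3.67 in the knockouts. All knockouts lay above all wild types, as for 4.21% of all probes, with a difference of 0.39 (SE 0.12, limma adjusted p = 1.00). Itgb4, the beta 4 chain of the laminin-binding integrin of epithelia, measured -2.31, -2.27 and -2.52 in the wild types and -2.79, -2.89 and -2.56 in the knockouts. There all knockouts lay below the wild types, as for 4.75% of all probes, with a difference of -0.38 (SE 0.13, limma adjusted p = 1.00).

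Other laminins and basement membrane proteins gave 19 measured of 20, with 0 called. Lama5, a laminin alpha chain, measured 0.11, 0.31 and 0.59 in the wild types and 0.14, -0.58 and -0.24 in the knockouts. Col7a1, the collagen of anchoring fibrils, measured -2.52, -3.00 and -2.67 in the wild types and -2.10, -2.56 and -1.75 in the knockouts. Their differences of -0.56 (SE 0.22) and 0.59 (SE 0.24) have opposite signs, and both overlap between the groups.

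Further fibre and proteoglycan genes gave 29 measured of 33, with 0 called and a median of -0.02. Efemp1, a fibulin, measured 1.18, 0.84 and 1.30 in the wild types and 0.81, 0.43 and 0.86 in the knockouts, a difference of -0.40 (SE 0.18) with overlap. Fmod, fibromodulin, a relative of decorin and lumican, measured -2.15, -2.93 and -3.19 in the wild types and -3.25, -3.52 and -3.30 in the knockouts. The groups do not overlap for Fmod, as for 4.75% of all probes in the lower direction. Its difference was -0.60 (SE 0.27), and wild type 1 was highest as for Dcn. Without wild type 1 the difference was -0.30, and within slide 2 it was -0.17.

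Regulators of matrix genes gave 13 measured of 14, with 0 called and a median of -0.05. Ccn2, a matrix-bound growth regulator induced by TGF-beta, measured 4.23, 3.74 and 2.42 in the wild types and 2.55, 2.33 and 2.96 in the knockouts. Its high values are those of slide 1, wild types 1 and 2, while wild type 3 lies among the knockouts on slide 2. The difference was -0.85 (SE 0.46). Tgfb3, a TGF-beta ligand, measured 2.48, 2.74 and 2.51 in the wild types and 2.43, 2.49 and 2.30 in the knockouts, a difference of -0.17 (SE 0.12). Over the 6 partner lists, 111 of 122 genes were measured and 0 were called. Of the 111, 2 were lower and 2 higher at an unadjusted p under 0.05, beside 1.74% and 2.2% of all probes.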

How the data were processed

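RNA of 6 ovary samples, 3 of each genotype, was measured on single-colour arrays, 1 array a sample. Per the file headers, the deposited scanner output is linear spot intensity made with version 10.7.1.1 of Agilent Feature Extraction, which subtracted background, removed spatial trends and put surrogates in place of low values within each array. Probe positions are on mm9, and the exon or UTR each probe reads was not worked out. The deposited series table also holds intensity, by steps not given in the sources read. Its columns share a median of 119.8 and follow their own arrays with a Spearman correlation of at least 0.9999 over probes, so it is linear and served as an alternative.

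Spots marked as outliers (192 to 459 an array) were left out, spots of a probe were averaged as log2, and each array's 75th percentile was subtracted. Of 39429 probes, 24415 were kept, those well above background in every sample of 1 or both genotypes. Names came from the accession (26412 probes), the symbol (3854), an older symbol (735) or the file (8428), through a RefSeq gene table of GRCm38.p6. The brightest kept probe stood for a gene; the members had 53 probes, 46 of them kept, and Lamb1 carries an older symbol in the files. The 2 genotypes were set against each other in limma 3.58.1 (R 4.3.3; lmFit, then eBayes; two-sided) with genotype as the only term and Benjamini-Hochberg adjustment over all kept probes, called under 0.05. The procedure was tested on simulated data. The small number of arrays sets the precision.

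The members and gene lists were chosen with earlier results of these data known. Values on each array are given for the collagen IV chains, Col1a1, Col1a2 and Col3a1, for the 2 smallest p, 2 brightest probes and 2 largest SDs of each class, and for the 2 smallest p of each partner list; the other members named were added for completeness. Figures used Python 3.11.15 and matplotlib 3.10.9. Alternatives were other background correction (normexp, offset 50) or scaling, other filters, slide or replicate blocks, array weights, an intensity trend, means over probes, each array left out and, added after seeing the data, outlier spots kept.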

Additional observations from a re-analysis of the deposited data

How the results depend on the processing

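Under all 20 alternatives, 0 members and 0 partner genes were called with limma; between 0 and 3 members, against 1 with all arrays and the reported settings, had an unadjusted p under 0.05. The 3 came with slide as a fixed block (8.57% of members, beside 9.79% of all probes in that fit) and without knockout 1 (8.57% beside 4.44%). The number of probes called over the whole array, 1 as reported (Selenbp1), was 0 with no filter on dim probes, 0 with slide as a fixed block, 0 on the shared slide alone and 0 with the replicate block, and ran from 0 to 19 with 1 array left out; the 19 came without wild type 3, the only wild type on slide 2. With the replicate block as a paired fit the median member difference stayed at -0.09, and 0 members were called. Deviations of same-numbered samples correlated at -0.33, 0.30 and -0.03, so the replicate numbers of the descriptions were not taken to pair samples. By the numbers in the sample titles 1 pair is shared, wild type 1 with knockout 2, whose deviations correlated at 0.14. The median of the glycoprotein and proteoglycan class, -0.10 as reported, ran from -0.28 without knockout 1 to 0.11 without knockout 2; without knockout 2 the medians of all members (0.09), fibrillar collagens (0.14) and other collagens (0.03) were also above 0, and that of basement membrane genes was -0.05. Array weights gave a median of 0.00 over members, with 17 lower and 18 higher, and 0.10 for fibrillar collagens. The number of members lower in the knockout ran from 14 without knockout 2 to 29 without knockout 1. Sparc has no value without wild type 3, so 34 members enter there. Dim probes limit Col4a3, Lox, Postn, Eln and Col14a1, whose signal lay far below the 75th percentile.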
